A study of Mus musculus with 6 samples.

Results

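The S100 calcium-binding proteins were followed in cultured mouse podocytes that lacked the adaptor proteins Nck1 and Nck2. Podocytes are the glomerular epithelial cells whose foot processes wrap the filtering capillaries of the kidney. The set was a list of 10 family genes, S100a1, S100a3, S100a4, S100a6, S100a8, S100a10, S100a11, S100a13, S100a16 and S100b, each read from the probe set whose annotation named only that gene. This rule gave a probe set for 9 of the 10, out of 30702 genes in all, since the probe set of S100a11 also names 2 other gene models and gave no value for it. Of the 10 genes, 9 lie on chromosome 3 and S100b lies on chromosome 10. The other 8 S100 genes on the array, S100a2, S100a5, S100a7a, S100a7l2, S100a9, S100a14, S100g and S100z, served as the rest of the family.

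The tested arrays came from a podocyte line in which Nck1 and Nck2 were both knocked out and were set against a wildtype podocyte line, with 3 arrays of each. Both lines were conditionally immortalized and were differentiated on type I collagen for 10 days, so the control cells had a like kind of immortalization and culture. Each genotype is represented by 1 line, so an effect of the knockout and a difference between lines cannot be told apart. Nothing states whether either line is a clone. Nck1 and Nck2 dock on phosphorylated tyrosines, such as those of nephrin in the slit diaphragm, and recruit the machinery of actin assembly.

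S100 proteins are small and usually dimeric. Each subunit has a pair of EF-hand loops, the calcium-binding fold shared with calmodulin. Calcium binding exposes a surface that grips partner proteins such as annexins, myosin or p53, and several members are also released and act on the receptors RAGE (Ager) and TLR4. Their transcripts are classically used as markers of fibroblasts (S100a4), myeloid cells (S100a8) and glia (S100b).

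All levels below are log2 intensities after the authors' robust multi-array normalization (RMA). A level of one gene cannot be set against that of another, because probes differ in brightness. The array's 23 background probe sets had means up to 7.78, with a median of 4.48. Gene means of up to 7.78 are described as within the background range. By this wide definition, the mean over the 6 arrays was within the range for 62.9% of all genes. Array medians ran from 6.73 to 6.81, and correlations across genes were 0.993 to 0.997 within a line and 0.978 to 0.985 between lines. Nck1 averaged 8.12 ± 0.06 in knockout and 8.63 ± 0.10 in wildtype (n = 3 each, SD), which gave a log2 fold change of -0.51 (limma adjusted p = 0.00391, SE 0.07). Nck2 averaged 7.24 ± 0.04 in knockout and 7.48 ± 0.13 in wildtype, both within the background range, and its difference was -0.24, with a limma adjusted p of 0.0941 that missed the threshold. The deleted part of either gene is not given, so these probe sets check the labels only weakly. Of 7 measured podocyte markers 0 passed, where 12.0% of all genes did. For 3 of the 7 both means lay within the background range. Nphs1, which encodes nephrin, was within that range at 6.98 ± 0.00 in knockout and 6.998 ± 0.10 in wildtype. The SD of 0.00 reflects identical deposited values in the 3 knockout arrays. The actin-associated podocyte gene Synpo was above the background range at 8.75 ± 0.03 in knockout and 8.73 ± 0.03 in wildtype. Of 7 endothelial markers 0 passed, against 12.0% of all genes, and the means of all 7 lay within the background range. The lines also differed in sex-linked transcripts, with Xist at 6.01 ± 0.05 in knockout and 12.19 ± 0.04 in wildtype and the Y-linked Uty at 9.90 ± 0.07 in knockout and 5.21 ± 0.14 in wildtype. This pair was chosen after its values were seen. Whether the lines came from animals of different sex is not given.

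S100 transcripts changed in both directions in the knockout line. S100a1 and S100a4 were higher by about a factor of 2, S100a13 was slightly higher, S100a10 was lower, and S100a3, S100a6, S100a8, S100a16 and S100b did not pass. The count among the 9 measured genes was 3 that rose, 1 that fell and 5 that did not pass (limma, adjusted p under 0.05 after Benjamini-Hochberg adjustment over all genes). Over all genes 12.0% were called, 5.05% as higher and 6.90% as lower in knockout. The median log2 fold change of the 9 genes was 0.03, against 0.01 over all genes. The groups did not overlap for 5 of the 9 genes, 3 higher and 2 lower in knockout, where 27.4% of all genes did not overlap, 12.6% being higher and 14.8% lower in knockout. In bulk samples a smaller share of expressing cells and less RNA per cell cannot be told apart.

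**Figure D1:**
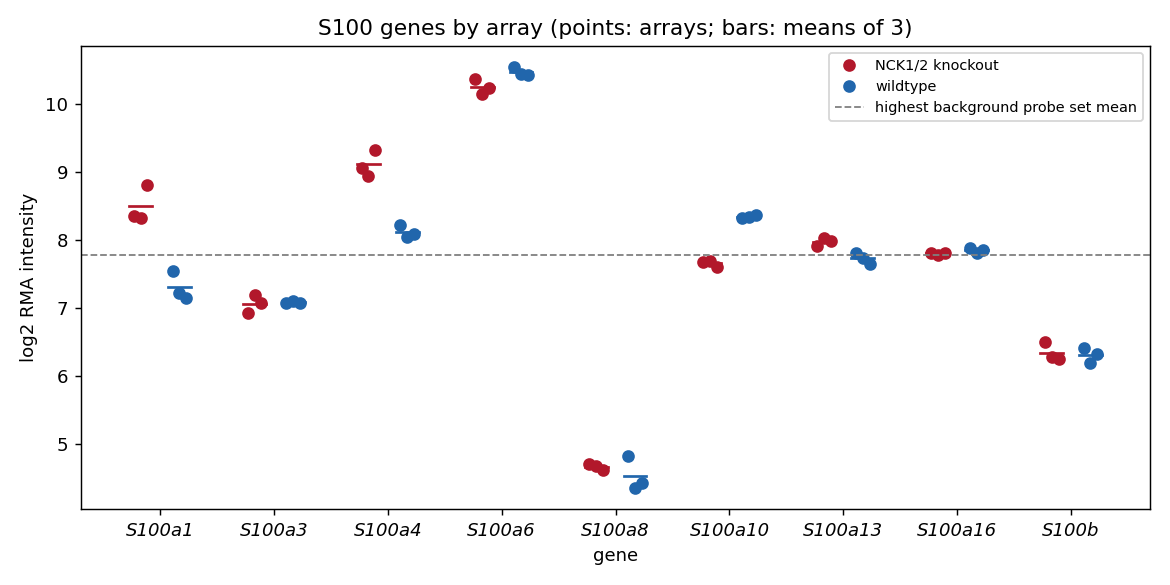
Log2 RMA intensity (vertical axis) of the 9 measured S100 genes (horizontal axis) in each array, with knockout points left of wildtype points, bars at the mean of 3 arrays and a dashed line at 7.78, the highest background probe set mean. The knockout and wildtype points separate for S100a1, S100a4, S100a6, S100a10 and S100a13 and intermingle for S100a3, S100a8, S100a16 and S100b.

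S100a1, a calcium sensor of heart and skeletal muscle that acts on the calcium pump and the ryanodine receptor, had the largest change of the 9. Its 3 knockout arrays read 8.34, 8.31 and 8.81, against 7.54, 7.21 and 7.15 in the wildtype arrays. Every knockout value was above every wildtype value, and the third knockout array was the highest of all. The means were 8.49 ± 0.28 in knockout and 7.30 ± 0.21 in wildtype (SD, n = 3 each), and the wildtype mean lay within the background range. The log2 fold change was 1.19 (95% confidence interval 0.80 to 1.59, SE 0.16, limma adjusted p = 0.00535), higher than that of 99.3% of all genes. Because the lower group lay within the background range, the size of this change depends on the background level.

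S100a13, which assists the release of FGF1 and interleukin-1 alpha by a route without a signal peptide, is the neighbour of S100a1. Its knockout arrays read 7.91, 8.03 and 7.98, against 7.81, 7.74 and 7.64 in wildtype. The groups did not overlap, with a gap smaller than the range of the wildtype arrays. The log2 fold change was 0.25 (SE 0.06, 95% confidence interval 0.10 to 0.39), which passed at a limma adjusted p of 0.0497. The wildtype mean of 7.73 lay within the background range and the knockout mean of 7.97 above it. That call was lost on leaving out any 1 of 5 arrays, with limma adjusted p of 0.0928 without knockout replicate 1, 0.160 without knockout replicate 2, 0.131 without knockout replicate 3, 0.104 without wildtype replicate 2 and 0.166 without wildtype replicate 3. It was also lost with chromosome medians taken off (adjusted p = 0.0511) and with every probe set tested (adjusted p = 0.0998), and over all 15 alternatives the adjusted p ran from 0.0165 to 0.166.

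S100a1 and S100a13 are transcribed away from each other, and their sequence is shown because their promoter windows overlap. In RefSeq, build GRCm38.p6, the gene span of S100a13 begins inside S100a1, at base 90514233 of chromosome 3, and the spans overlap, since S100a1 ends at 90514330. The start of S100a13 in the promoter table lies farther on, 105 bases from that of S100a1. The promoter windows of these starts, from 250 bases before to 50 after each, overlap by 204 bases. The window of S100a1 is chr3:90514281-90514580 on the minus strand and that of S100a13 is chr3:90514185-90514484 on the plus strand. Capitals mark the 104 bases between these starts, which read as reverse complements of each other in the pair.
S100a1: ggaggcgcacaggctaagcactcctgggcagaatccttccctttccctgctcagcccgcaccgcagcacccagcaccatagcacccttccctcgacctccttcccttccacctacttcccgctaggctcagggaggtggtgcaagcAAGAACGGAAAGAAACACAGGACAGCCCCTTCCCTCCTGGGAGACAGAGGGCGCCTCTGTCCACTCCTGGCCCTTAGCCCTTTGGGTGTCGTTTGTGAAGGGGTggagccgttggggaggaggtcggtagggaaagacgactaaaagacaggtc
S100a13: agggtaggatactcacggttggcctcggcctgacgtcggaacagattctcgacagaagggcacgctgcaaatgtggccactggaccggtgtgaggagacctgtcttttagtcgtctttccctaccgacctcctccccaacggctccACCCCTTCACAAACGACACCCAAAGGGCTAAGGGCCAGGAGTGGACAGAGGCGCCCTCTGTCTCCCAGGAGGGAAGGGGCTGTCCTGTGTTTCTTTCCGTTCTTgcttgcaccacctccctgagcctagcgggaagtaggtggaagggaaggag
Both strands of each window were searched for 4 short motifs. The TATA box core TATAAA occurs in 13.6% of the 32851 promoter windows of the table. The AP-1 site TGANTCA, which reads alike on both strands, occurs in 7.81% of them. The Sp1 box GGGCGG occurs in 35.7% and the TEAD site GGAATG in 14.7%. None of the 4 motifs overlaps another in the windows printed here, and neither window of the pair held a match to any of them. The log2 fold changes were 1.19 for S100a1 and 0.25 for S100a13, and the difference between them was not tested.

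S100a4, also called metastasin or fibroblast-specific protein, binds non-muscle myosin and is linked to cell motility. Its knockout arrays read 9.06, 8.95 and 9.32, against 8.22, 8.05 and 8.08 in wildtype. All 3 knockout values lay above all 3 wildtype values, and both means were above the background range. The means were 9.11 ± 0.19 in knockout and 8.11 ± 0.09 in wildtype (SD, n = 3 each). The log2 fold change was 1.00 (SE 0.10, 95% confidence interval 0.74 to 1.25, limma adjusted p = 0.00188). Of 10 measured fibroblast and myofibroblast markers, 4 rose, 1 fell and 5 did not pass, where 5.05% of all genes rose and 6.90% fell. Those that rose were Col1a1, Dcn, Pdgfrb and Acta2, and the matrix gene Postn fell by 5.97 on the log2 scale. These were named after their values were seen. Col1a2, Col3a1, Lum, Thy1 and Vim did not pass. Both means lay within the background range for 4 of the 10. The markers' summed level, on the log2 scale, ran from 14.36 to 14.47 in knockout arrays and from 13.80 to 13.89 in wildtype arrays. In such a sum the brightest probe sets weigh most, and the part of such cells in the S100a4 result was not tested.

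S100a6, or calcyclin, the partner of the ubiquitin ligase adaptor Cacybp, lies close behind S100a4 on the chromosome with only S100a5 between them. Gaps of 434 bases from S100a4 to S100a5 and 1109 bases from S100a5 to S100a6 separate the 3 genes. S100a6 read 10.36, 10.14 and 10.23 in knockout, against 10.54, 10.44 and 10.43 in wildtype. The knockout values were all the lower ones, but the log2 difference of -0.23 (95% confidence interval -0.39 to -0.06) missed the threshold at a limma adjusted p of 0.101. S100a5, known from olfactory neurons, lay within the background range in each line and differed by 0.15 (limma adjusted p = 0.521).

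The promoters of S100a4 and S100a6 are shown because these close neighbours differed in the sign of their fold change. Both windows are on the plus strand of GRCm38.p6 in RefSeq, chr3:90603520-90603819 for S100a4 and chr3:90612644-90612943 for S100a6. Capitals mark matches to the 4 motifs named above.
S100a4: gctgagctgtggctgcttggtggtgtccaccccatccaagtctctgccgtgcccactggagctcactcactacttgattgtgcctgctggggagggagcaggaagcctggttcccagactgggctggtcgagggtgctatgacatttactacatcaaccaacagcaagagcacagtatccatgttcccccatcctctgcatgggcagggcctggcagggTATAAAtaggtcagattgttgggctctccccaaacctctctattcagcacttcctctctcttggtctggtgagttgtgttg
S100a6: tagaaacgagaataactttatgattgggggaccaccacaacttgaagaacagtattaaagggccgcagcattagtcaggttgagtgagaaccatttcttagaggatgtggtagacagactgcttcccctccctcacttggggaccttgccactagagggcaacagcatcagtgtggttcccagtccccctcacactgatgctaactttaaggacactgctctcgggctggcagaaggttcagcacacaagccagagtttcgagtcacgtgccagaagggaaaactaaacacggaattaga
The S100a4 window held TATAAA, the core of the classical TATA box, with its first base at -31 from the start. The S100a6 window held none of the 4 motifs. Among the 9 listed genes with a promoter in the table, TATAAA was present for 3, namely S100a3, S100a4 and S100a8. These matches describe the letters of the windows only.

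S100a10, or p11, has lost calcium binding and works in a fixed complex with annexin A2 that brings channels and plasminogen to the membrane. It was the only one of the 9 that fell. Its knockout arrays read 7.67, 7.69 and 7.60, against 8.33, 8.34 and 8.36 in wildtype. The groups were clearly separated and each was tight, with means of 7.65 ± 0.05 in knockout and 8.34 ± 0.02 in wildtype (SD, n = 3 each). The log2 fold change was -0.69 (SE 0.05, 95% confidence interval -0.80 to -0.58, limma adjusted p = 0.000293), and 1.68% of all genes had a lower one. The knockout mean lay within the background range. Its obligate partner Anxa2 read 10.90 ± 0.15 in knockout and 10.74 ± 0.02 in wildtype, and the difference of 0.16 missed the threshold (limma adjusted p = 0.311).

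**Figure D2:**
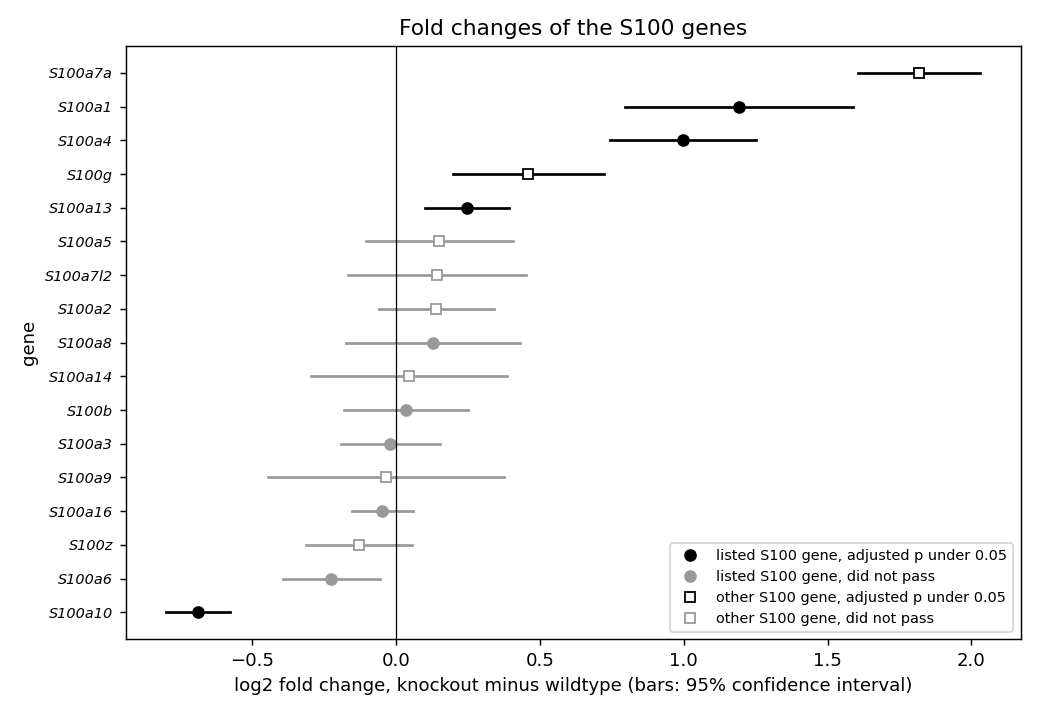
Log2 fold change, knockout minus wildtype (horizontal axis), with 95% confidence intervals for the 9 listed and 8 other S100 genes, ordered by value. S100a7a (1.82), S100a1 (1.19) and S100a4 (1.00) lie farthest to the right, and S100a10 (-0.69) stands alone on the left among the genes that passed.

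The other listed genes gave small differences. S100a16, a broadly expressed member with weak calcium binding, averaged 7.80 ± 0.02 in knockout and 7.85 ± 0.04 in wildtype. Both means lay just above 7.78, the top of the background range, where small changes can be compressed. Knockout replicates 1 and 3 and wildtype replicate 2 shared the value 7.81. The difference of -0.05 had a 95% confidence interval of -0.15 to 0.06 (limma adjusted p = 0.656). S100a3, a zinc- and calcium-binding protein of the hair cuticle, averaged 7.06 ± 0.13 in knockout and 7.08 ± 0.02 in wildtype, within the background range in both (limma adjusted p = 0.945). Its interval ran from -0.19 to 0.15. For S100a3, knockout replicate 3 and wildtype replicates 1 and 3 shared the value 7.07.

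S100a8, which pairs with S100a9 as calprotectin in neutrophils and monocytes, was far down in the background range. It read 4.69, 4.67 and 4.60 in knockout, against 4.82, 4.34 and 4.42 in wildtype. Wildtype replicate 1 was the highest of the 6 arrays, and the difference of 0.13 (limma adjusted p = 0.688) became 0.27 without that array (adjusted p = 0.0353). Its partner S100a9 averaged 6.29 ± 0.04 in knockout and 6.32 ± 0.36 in wildtype, also within the background range. Of 10 myeloid markers 2 rose, 2 fell and 6 did not pass, against 12.0% of all genes called. Both means lay within the background range for 7 of them, among them the leukocyte gene Ptprc at 5.004 in knockout and 5.015 in wildtype. The other 3, named after their values were seen, all passed. The receptor genes Csf1r and Cd14 had log2 fold changes of -1.21 and -0.73, and the lysosomal Cd68 had 0.57. Besides Cd68 the marker that rose was Ly6g, by 0.49 (limma adjusted p = 0.0118), also named after its values were seen. Both means of Ly6g lay within the background range. The summed log2 level of the list ran from 10.48 to 10.70 in knockout and from 10.904 to 11.0001 in wildtype arrays.

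S100b, the glial and melanocytic member that binds p53, averaged 6.34 ± 0.14 in knockout and 6.31 ± 0.11 in wildtype. The groups overlapped within the background range, and the difference of 0.03 had a 95% confidence interval of -0.18 to 0.25 (limma adjusted p = 0.923). Of 6 measured Schwann and glial markers 0 passed, against 12.0% of all genes, and 5 had both means within the background range. Their summed log2 level ran from 9.84 to 9.88 in knockout and from 9.80 to 9.98 in wildtype arrays.

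Among the 8 other S100 genes, 2 rose and 6 did not pass, where 5.05% of all genes rose. S100a7a, the mouse relative of human psoriasin, known from inflamed skin, read 10.80, 10.82 and 10.66 in knockout, against 8.80, 9.09 and 8.94 in wildtype. The groups were far apart, both above the background range, and the log2 fold change of 1.82 (SE 0.09, 95% confidence interval 1.61 to 2.03, limma adjusted p = 9.07e-05) exceeded that of 99.7% of all genes. Near-identical family members can share probes, so a value within the family can hold signal of a relative.

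S100g, or calbindin-D9k, lies on the X chromosome and carries calcium through cells of the gut and the distal nephron. It averaged 7.32 ± 0.17 in knockout and 6.86 ± 0.14 in wildtype, both within the background range, and rose by 0.46 (SE 0.11, limma adjusted p = 0.0418). That call was lost on leaving out any of the 6 arrays, at limma adjusted p of 0.0692 without knockout replicate 1, 0.1001 without knockout replicate 2, 0.0834 without knockout replicate 3, 0.0786 without wildtype replicate 1, 0.118 without wildtype replicate 2 and 0.120 without wildtype replicate 3. Of 10 tubular markers 5 fell and 5 did not pass, where 6.90% of all genes fell. Those that fell, named after their values were seen, were Lrp2, Cubn, Aqp1, Cdh16 and Pax8. Slc34a1, Aqp2, Umod, Slc12a1 and Slc12a3 did not pass. Both means lay within the background range for 5 of the 10. The summed log2 levels were 12.72 to 12.78 in knockout and 14.07 to 14.16 in wildtype arrays. Aqp1, which weighs heavily in this sum, averaged 9.42 in knockout and 12.92 in wildtype. The part of these markers in the S100g result was not tested.

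The changes were scattered along the main chromosome 3 cluster. From S100a1 to S100a9 the cluster spans 185 kb and held 12 measured S100 genes. Genes are listed in chromosome order by the proximal end of their RefSeq span. The log2 fold changes were 1.19 for S100a1, 0.25 for S100a13, 0.05 for S100a14, -0.05 for S100a16 and -0.02 for S100a3. Next came 0.14 for S100a2, 1.00 for S100a4, 0.15 for S100a5 and -0.23 for S100a6. They went on with 1.82 for S100a7a, 0.13 for S100a8 and -0.03 for S100a9. The span of S100a3 contains that of S100a2. Genes that rose were interspersed with genes that did not pass. The other 2 measured genes of the span, the small nuclear RNA model Gm24593 and the pseudogene Gm23464, did not pass. S100a10 lies apart, beyond a gap of 2413 kb between S100a7l2 and S100a11. The median log2 fold change of the 1431 chromosome 3 genes was 0.001.

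**Figure D3:**
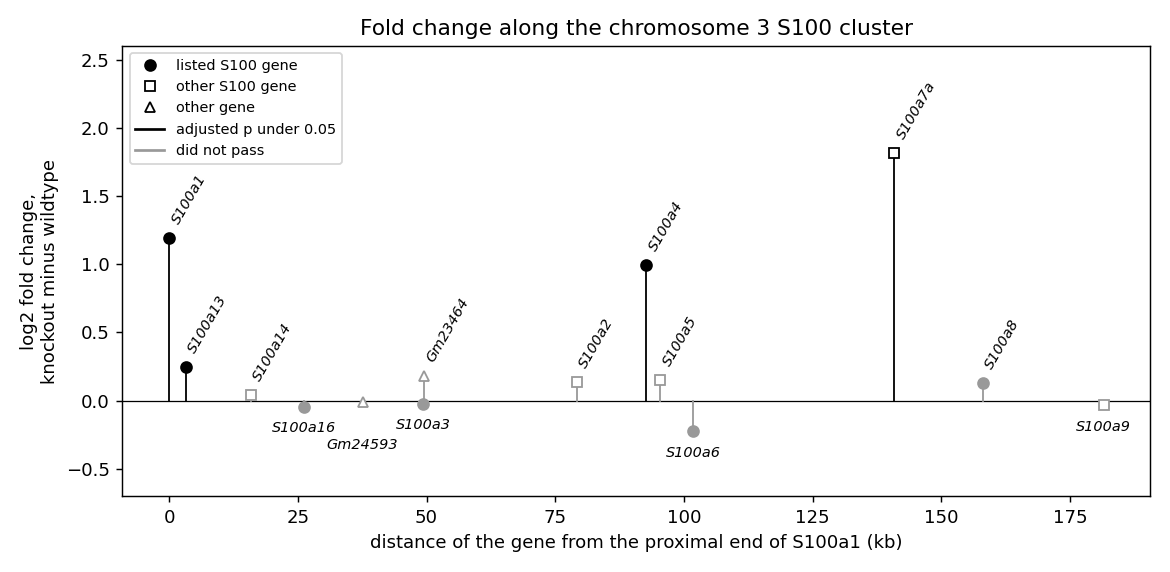
Log2 fold change, knockout minus wildtype (vertical axis), against the distance of each measured gene from the proximal end of S100a1 in kb (horizontal axis), for the cluster from S100a1 to S100a9. Each gene is placed at the proximal end of its RefSeq span. The stems of S100a1, S100a13, S100a4 and S100a7a mark genes that passed, at 1.19, 0.25, 1.00 and 1.82, and genes that did not pass lie between S100a13, S100a4 and S100a7a.

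Partners of the S100 proteins inside the cell were called about as often as genes in general. The 16 measured intracellular partners held 2 that rose and 14 that did not pass, so 12.5% were called, against 12.0% of all genes, and their median log2 fold change was 0.04. The groups did not overlap for 7 of the 16, against 27.4% of all genes. Anxa6, a membrane-binding annexin that S100a1, S100a6 and S100b can bind, averaged 9.45 ± 0.12 in knockout and 8.76 ± 0.02 in wildtype, a rise of 0.69 on the log2 scale (SE 0.07, limma adjusted p = 0.00143). Ppfibp1, which encodes the S100a4 partner liprin beta 1, averaged 10.61 ± 0.14 in knockout and 10.13 ± 0.05 in wildtype, a rise of 0.47 on the log2 scale (SE 0.08, limma adjusted p = 0.0107). Anxa1, which S100a11 binds, differed by -0.001 and Cacybp by -0.03, with limma adjusted p of 0.998 and 0.949. Anxa11, Ahnak and Myh9 are not analysed here, since no probe set named only them.

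On the outside of the cell, 0 of 13 surface and secreted partners passed by limma, where 12.0% of all genes did. Both means lay within the background range for 9 of the 13, where small changes can be compressed. The median log2 fold change of the list was 0.05, with a range from -0.26 to 0.14. The receptor gene Ager averaged 8.05 ± 0.06 in knockout and 8.03 ± 0.18 in wildtype. The receptor gene Tlr4 averaged 9.80 ± 0.08 in knockout and 9.73 ± 0.06 in wildtype. Both were above the background range, with limma adjusted p of 0.965 and 0.649. Of the 13 genes, 2 had an unadjusted p under 0.05 by limma, the plasminogen activator gene Plat and the serotonin receptor gene Htr1b, which were named after their values were seen. Over all genes 23.1% had an unadjusted p under 0.05.

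Other EF-hand genes were also called about as often as genes in general. The 24 measured genes held 2 that rose, 1 that fell and 21 that did not pass, so 12.5% were called, against 12.0% of all genes, and their median log2 fold change was 0.003. The groups did not overlap for 13 of the 24, 6 higher and 7 lower in knockout, a share of 54.2% against 27.4% of all genes. The centriolar Cetn2, which lies on the X chromosome, fell by 0.64 on the log2 scale (SE 0.10, limma adjusted p = 0.0104). Its knockout mean lay within the background range. The calpain regulatory subunit gene Capns1 rose by 0.26 (SE 0.05, adjusted p = 0.0264) and the neuronal calcium sensor gene Hpcal1 by 0.25 (SE 0.06, adjusted p = 0.0347), both by limma.

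The genes closest in pattern to S100a1 over the 6 arrays were the homeobox gene Hoxc6 and the gene models Gm12648 and Gm6781. Likeness was the root-mean-square difference of the 6 values after each gene was centred on its own mean, at 0.09 for Hoxc6, 0.11 for Gm12648 and 0.12 for Gm6781. Hoxc6 averaged 9.82 ± 0.21 in knockout and 8.70 ± 0.25 in wildtype. Gm12648 averaged 7.38 in knockout and 6.23 in wildtype, both within the background range, and Gm6781 is a pseudogene. The log2 fold changes were 1.12 for Hoxc6, 1.14 for Gm12648 and 1.22 for Gm6781, against 1.19 for S100a1. A match on the difference between lines weighs heavily in this measure, and shared regulation was not tested.

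**Figure D4:**
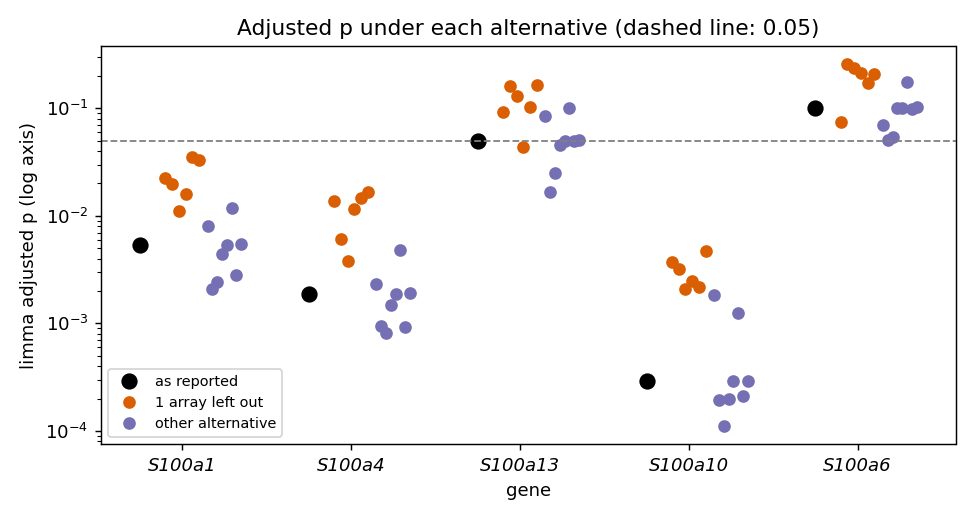
Limma adjusted p on a log axis (vertical) for 5 S100 genes (horizontal) as reported, with 1 array left out and under the other alternatives at a threshold of 0.05 (dashed line). S100a1, S100a4 and S100a10 stay below the line throughout, S100a13 lies on both sides of it and S100a6 stays above it.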

How the data were processed

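Total RNA of 6 podocyte cultures, 3 Nck1 and Nck2 knockout and 3 wildtype, was labelled and hybridized to Affymetrix arrays, per the labels' protocols. The authors deposited 1 log2 intensity for each probe set and array. The submitters' processing notes name RMA and affy 1.44.0 as the tools of the authors. RMA adjusts background, quantile-normalizes arrays and summarises probes, so small changes of dim genes can be compressed. All columns were used. The sources used here do not name a probe definition file. The labels call the replicates independent without naming their source, so p-values measure the spread between these samples only.

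Of 72688 probe sets, 31258 named 1 gene in the platform annotation after symbols were updated through a RefSeq table of GRCm38.p6. The probe set with the highest mean was kept per gene, leaving 30702 genes, of which 30700 were in that table. Knockout minus wildtype was tested with limma 3.58.1 (lmFit, eBayes, two-sided) in R 4.3.3, with no covariate or filter and Benjamini-Hochberg adjustment at 0.05 over all genes. Figures used matplotlib 3.10.9. On simulated data for this comparison with 30702 genes, limma recovered 49.3% of 67 genes changed by 0.5, 89.6% of 67 changed by 1 and 98.5% of 66 changed by 2 on the log2 scale, with 11 false calls. The simulation changed far fewer genes than were called in the data and drew noise independently for each gene and array. These shares therefore need not hold for the data. Precision is limited by the number of arrays.

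The members and gene lists were chosen with earlier results of these data known. Genes were named by rule: all S100 genes, 8 partners always, up to 5 further changed genes per list, and the 3 genes most alike to the most changed member. Alternatives were a replicate block, each array left out, a further quantile normalization, a filter on dim genes, another variance prior, other uses of probe sets, removal of genes with identical values in a group, chromosome medians taken off and a threshold of 0.01.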

Additional observations from a re-analysis of the deposited data

How the results depend on the processing

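S100a1, S100a4, S100a10 and S100a7a kept their direction and their call under all 15 alternatives. Their log2 fold changes ran from 1.03 to 1.31 for S100a1, 0.89 to 1.08 for S100a4, -0.71 to -0.66 for S100a10 and 1.75 to 1.89 for S100a7a. S100a13 kept its direction (0.20 to 0.28) but lost its call in 9 of 15, and S100g lost its call in 8 of 14. The number of listed S100 genes called was 3 to 5 with 1 array left out and 3 or 4 otherwise, against 4 as reported. Genes called over the whole array numbered 2079 to 3388 with 1 array left out, the lowest being without wildtype replicate 3, then 2232 without knockout replicate 1 and 2311 without knockout replicate 2. At a threshold of 0.01 they numbered 1948. With wildtype replicate 1 left out S100a8 and S100a2 passed, at limma adjusted p of 0.0353 and 0.0331. Differences near 0 turned sign for S100a3 without knockout replicate 1, S100b without knockout replicate 1 or wildtype replicate 2, S100a9 without wildtype replicate 1 and S100a14 without wildtype replicate 2. With 1 array left out their log2 fold changes ran from -0.083 to 0.047 for S100a3, -0.045 to 0.084 for S100b, -0.20 to 0.15 for S100a9 and -0.084 to 0.20 for S100a14. None of these 4 genes passed under any alternative, and the cause was not tested. The filter on dim genes left 6 of the 9 listed genes, with 4 called, where 27.1% of all genes left by it were called.

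With the replicate number as a block, 3 listed genes and 3765 genes in all were called, and S100a13 was the listed gene lost (limma adjusted p = 0.0851). Deviations of same-numbered arrays correlated at 0.35, 0.28 and 0.04 across genes, and those of arrays with unlike numbers from -0.34 to 0.05. The third knockout array correlated slightly better with wildtype replicate 2 (0.05) than with its own number. Whether same numbers mark a shared batch was not tested, and the block was kept as an alternative only. For S100a3, S100a8 and S100b both means lay in the background range, where signal over background limits what can be seen.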
